A study of Mus musculus with 48 samples.

Results

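The nuclear genes that encode the subunits of respiratory complex I were followed in cytoplasmic and polysomal RNA of mPDAC, a cell line from a mouse pancreatic ductal tumour, with and without N6L, a pseudopeptide that targets nucleolin. The members are the protein-coding genes whose symbol begins with Ndufa, Ndufb, Ndufc, Ndufs or Ndufv and a number, together with Ndufab1; the assembly factors (Ndufaf) are left out. The rule gave 38 genes, all of them present among the 50600 genes of the count tables. They lie on 15 chromosomes, 2 of them on the X chromosome.

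Cells of FVB/N x C57BL6 origin (the labels give 8 weeks as the age) received either no treatment (NT, cultures 1, 2 and 4) or 50 µM N6L for 48 h (cultures 1, 2 and 3). From each culture, RNA was sequenced from an aliquot of the cytoplasmic lysate and from the pooled polysomal fractions of a sucrose gradient, which gave 12 libraries in 4 groups of 3. All groups are one line grown in culture, exposed to emetine before lysis, and nuclei and mitochondria had been pelleted out of the lysates by centrifugation. Nothing in the labels says how far the cultures were independent, so the p-values measure the spread between these samples.

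Complex I (NADH:ubiquinone oxidoreductase) is the largest enzyme of the mitochondrial electron transport chain. It takes electrons from NADH at the tip of a matrix arm, passes them along iron-sulfur clusters to ubiquinone, and pumps protons through a membrane arm. The catalytic core consists of nuclear-encoded subunits of the matrix arm and mitochondrially encoded ND subunits of the membrane arm, around which many accessory subunits are assembled in modules. The N module oxidises NADH, the Q module reduces ubiquinone, and the proximal and distal parts of the membrane arm carry the pumps. Ndufa4, which the symbol rule includes, is now counted with complex IV, and Ndufa4l2 is its paralog.

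The promoters were read for letters of factors known for respiratory chain genes, since the members moved together in the results that follow. RefSeq windows (GRCm38.p6, 250 bases before to 50 bases after the annotated start) were matched by symbol for 33 of the 38 members, in 35 windows; Ndufa2, Ndufa4l2, Ndufb9 and Ndufs1 were among those with no entry. Searched on both strands, the NRF1 core (GCGCATGCG) stood in 2 of the 35 windows (5.71%) and in 1.75% of all 32851 windows. The 2 stretches that hold it are shown because NRF1, nuclear respiratory factor 1, is the factor most closely tied to respiratory genes; capitals mark the match, which in Ndufa11 (chr17:56717691-56717720, plus strand) reads on both strands and in Ndufa8 (chr2:36049329-36049358, minus strand) on the reverse strand.
Ndufa11: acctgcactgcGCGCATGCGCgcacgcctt
Ndufa8: gtcgctggagaCGCATGCGCagatggtacc

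The YY1 core (AAGATGGCG) was found in 5 of the 35 windows (14.3%) against 1.40% of all windows, always on the gene's own strand and starting 23 to 36 bases after the annotated start. In all 5 the ATG of the match is the start codon that GENCODE annotates, so that the same letters read as a factor's core and as the start of the coding sequence. The 5 sites are printed with the match in capitals: Ndufa9 at chr6:126849097-126849126 (minus strand), Ndufc1 at chr3:51408915-51408944 (minus), Ndufs4 at chr13:114388045-114388074 (minus), Ndufs6 at chr13:73328433-73328462 (minus) and Ndufs7 at chr10:80249462-80249491 (plus).
Ndufa9: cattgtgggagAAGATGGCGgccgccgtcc
Ndufc1: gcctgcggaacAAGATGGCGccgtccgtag
Ndufs4: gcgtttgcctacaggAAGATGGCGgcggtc
Ndufs6: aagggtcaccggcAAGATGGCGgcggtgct
Ndufs7: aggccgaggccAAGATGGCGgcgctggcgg
The ETS core (CCGGAAG) stood in 4 windows (11.4%, against 8.86% of all windows), those of Ndufb6, Ndufb7, Ndufs3 and Ndufs8. The ERR core (TCAAGGTCA) was in 0 of the 35 windows and in 0.423% of all. A match is a description of the letters only.

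Total counts ranged from 19519911 to 44972333 per library. The libraries of NT culture 4, and the polysome library of N6L culture 3, stood apart from the others of their groups, and counts and medians that moved without them are given both ways. Levels are TMM-scaled CPM, that is, shares of a library, so that less of an mRNA per cell and fewer cells that make it cannot be told apart. Of 7 ductal or epithelial markers 6 passed the filter on low counts, with a summed level of 6996 to 9241 CPM in the NT cytoplasm and 6427 to 7853 CPM in the N6L cytoplasm; Epcam was below 1 CPM in every library. Of the 4 acinar markers 3 were below 1 CPM throughout (summed level 27.6 to 82.8 CPM over all groups), as were all 6 fibroblast markers, all 3 endothelial markers and 3 of 4 immune markers, with summed levels of at most 2.26 CPM.

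Of the 38 members, 37 passed the filter on low counts and 35 had a mean of at least 10 CPM, from 36.2 CPM (Ndufb2) to 332 CPM (Ndufa4). Their counts in single libraries ran from 440 to 20936. The other 3 were low. Ndufb4, a distal-arm subunit, had a mean of 7.18 CPM, and its processed pseudogene copy Ndufb4c (100% identical over 390 bases) had 0.018 CPM. Ndufs5, a proximal-arm subunit, had 0.299 CPM, at most 24 counts in a library, while its processed pseudogene copy BC002163 (99.4% identical over 319 bases) had 33.8 CPM. Ndufa4l2 was at 0 to 3 counts per library and was not tested. Reads of Ndufs5 and BC002163 cannot be assigned to one or the other with certainty from gene counts. The same holds for Ndufb4 and Ndufb4c, and for Ndufa12 (54.6 CPM) and its copy Gm15920 (22.0 CPM, 99.5% identical over 402 bases). In all, 7 members had a copy elsewhere that was at least 95% identical over at least 200 bases, and 17 shared exon bases with another gene. What this did to their counts was not tested.

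Per unit of transcript length, the NT cytoplasm held most of Ndufa4 (1060 ± 129 TPM, a share of transcripts after division by length; SD, n = 3), Ndufa2 (743 ± 96.9 TPM), Ndufa7 (699 ± 80.8 TPM) and Ndufa6 (640 ± 47.1 TPM). Between these neighbours only the step from Ndufa4 to Ndufa2 was larger than their spread. The 7 nuclear core subunits ran from 281 ± 31.2 TPM for Ndufv2 down to 30.7 ± 7.45 TPM for Ndufs1, the longest member (2590 bases). Below Ndufs1 stood Ndufb4, Ndufs5 and Ndufa4l2.

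In the cytoplasm, the complex I mRNAs fell with N6L almost as a block. Of the 37 members tested, 27 were lower (edgeR quasi-likelihood test, FDR under 0.05) and 0 were higher, where 13.8% of all 13889 genes tested were called lower and 14.5% higher. The 27 fell by 1.48-fold (Ndufv1) to 2.43-fold (Ndufa5), and the median log2 difference of the 37 was -0.86, beside 0.04 for all genes. In 34 members every N6L culture lay below every NT culture; 25.6% of all genes did so. Ndufs1 was the reverse, with every N6L culture above every NT culture, and Ndufs5 and Ndufb8 overlapped.

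The summed level of the 38 members showed the same in each library. It was 4085, 4048 and 6093 CPM in NT cultures 1, 2 and 4 and 2665, 2771 and 2968 CPM in N6L cultures 1, 2 and 3. The N6L cultures lay close together and below all NT cultures, and NT culture 4 was far above the other NT cultures. On the TPM scale the fall was smaller, with sums of 9110, 9156 and 11571 TPM without and 7081, 7780 and 8001 TPM with N6L. The median log2 difference of the 37 members was -0.38 (mean TPM plus 1), where that of all genes was 0.35. All N6L cultures were lower in 19 members (8.89% of all genes) and higher in 2 (54.4%). Each gene was divided by a single fixed length, so the step from CPM to TPM rescales all genes of a library alike. On the TPM scale the mean level was higher with N6L in 4 members, Ndufs1, Ndufa9 and Ndufb8 among them. In polysomes the sums were 5563, 5183 and 7776 CPM without and 3980, 4694 and 6583 CPM with N6L, and here the groups overlapped.

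**Figure D1:**
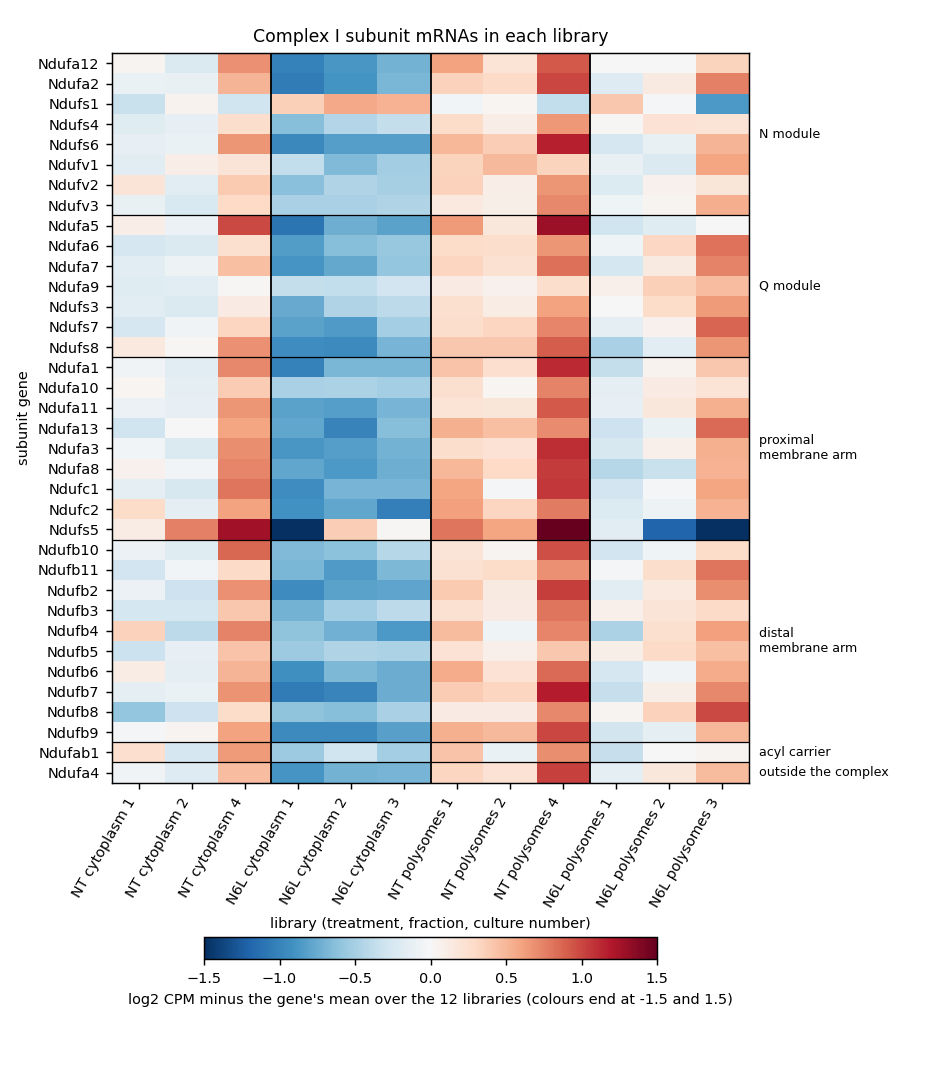
Log2 CPM of 36 complex I subunit genes (rows, grouped by module) in the 12 libraries (columns), each gene shown as the difference from its own mean over the libraries; CPM values had 0.05 added before the logarithm. The 3 cytoplasmic libraries of N6L-treated cells are below the mean for nearly all subunits and Ndufs1 is above it there; both libraries of NT culture 4 and the polysome library of N6L culture 3 are high.

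The number of calls rested on the cultures and on how transcript length was treated. Without NT culture 4 the median difference was -0.62 and 15 members were called lower (15.5% of all genes were then called in either direction, 28.3% with it), and without N6L culture 2 it was -0.89 with 7 called (9.24% of all genes). Without both NT culture 4 and N6L culture 3, a fit added after seeing the data, 25 were called lower and 1 higher (27.3% of all genes). The members are short: the median transcript has 704 bases, that of all genes tested 2462, and 29 of the 37 are in the shortest 2 of 10 equal length classes. Over all 13867 genes of known length the cytoplasmic difference rose with length (Spearman rho 0.49, across genes, which are not independent), from a median of -0.54 in the shortest of the 10 classes to 0.51 in the longest. With offsets for transcript length and GC content in the fit, 14 members were called lower and 1, Ndufs1, higher, where 29.7% of all genes were called in either direction, and the median was -0.40, with 34 of 37 below 0.

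**Figure D2:**
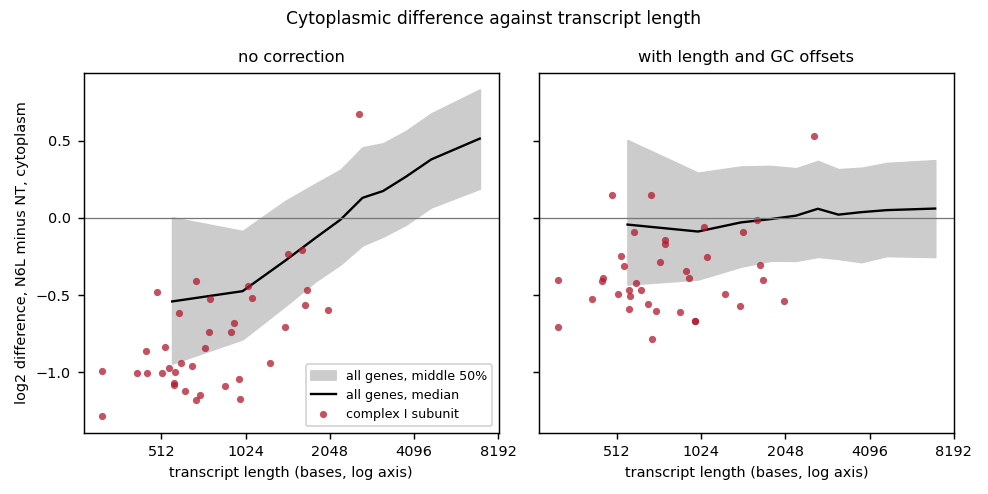
Log2 difference between N6L and NT in the cytoplasm (vertical) against transcript length on a log axis, for the 37 subunits (points) and all genes (black line, median of each of 10 length classes; grey, their quartiles), without (left) and with (right) offsets for length and GC content. On the left the medians of the shorter classes are below 0, and 31 of the 37 subunits lie under the median of their class. On the right the line is nearly level, 33 lie under it and 34 of the 37 subunits are below 0.

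In the N module, 5 of 8 subunits fell in the cytoplasm, 3 did not pass the test and the median log2 difference was -0.62. Ndufv1, which binds NADH and the flavin, had 117, 140 and 149 CPM in NT cultures 1, 2 and 4 and 101, 82.2 and 91.2 CPM in N6L cultures 1, 2 and 3. The groups did not overlap, and the log2 difference was -0.56 (SE 0.20, FDR 0.046). Ndufv2, its iron-sulfur partner, had 185, 144 and 211 CPM without and 104, 118 and 114 CPM with N6L, a log2 difference of -0.68 (SE 0.18, FDR 0.015).

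Ndufs1 (chr1:63143596-63176833, minus strand, GRCm38), the largest core subunit and the carrier of several iron-sulfur clusters of the N module, went the other way. Its cytoplasmic level was 48.5, 63.4 and 49.6 CPM without and 78.5, 90.7 and 87.8 CPM with N6L. All N6L cultures were higher, and the log2 difference was 0.67 (SE 0.25), with an FDR of 0.054 that just missed the limit. It passed the limit, as higher, in the DESeq2 fit (log2 difference 0.64, FDR 0.044) and with the length and GC offsets (log2 difference 0.53, FDR 0.045). It also passed with library size alone, with no filter on low counts and with at least 10 counts in every library. The same held for a fit of only the groups compared and for culture number as a block. Dropping N6L culture 1, N6L culture 3, or NT culture 4 together with N6L culture 3 likewise gave a pass. It did not pass with another scaling (RLE size factors), with technical replicate a alone or without the technical replicates with conflicting labels. Nor did it pass without N6L culture 2 or without any one of the NT cultures, so the call depended on the setting. The accessory N-module subunits Ndufa12, Ndufs6 and Ndufa2 fell by 1.08, 1.07 and 1.00 on the log2 scale, and Ndufs4 and Ndufv3 had differences of -0.47 and -0.48 that did not pass (FDR 0.058 and 0.096).

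In the Q module 5 of 8 subunits were called lower and all 8 were below 0, with a median log2 difference of -0.68. Ndufa5 (chr6:24518666-24528013, minus strand), a small accessory subunit, had the largest fall of all members: 85.0, 74.6 and 158 CPM without and 37.0, 47.9 and 45.6 CPM with N6L (log2 difference -1.28, SE 0.29, FDR 0.0073). Ndufs8, a core subunit with a pair of iron-sulfur clusters, had 122, 111 and 177 CPM without and 57.9, 56.8 and 67.8 CPM with N6L (log2 difference -1.17, SE 0.27, FDR 0.0077). In both genes every N6L culture was well below every NT culture, and NT culture 4 was the highest.

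Ndufs7, which holds the cluster that hands electrons to ubiquinone, had 95.6, 109 and 142 CPM without and 65.3, 62.9 and 79.9 CPM with N6L (log2 difference -0.74, FDR 0.038). Ndufa9, an accessory subunit of the hinge between the arms, had 96.4, 96.8 and 111 CPM without and 84.9, 84.3 and 89.6 CPM with N6L, and differed little although its groups did not overlap (log2 difference -0.23, FDR 0.23). Ndufs3, another core subunit of the module, had 75.5, 73.0 and 92.3 CPM without and 50.5, 62.0 and 64.8 CPM with N6L (log2 difference -0.44, FDR 0.094).

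In the proximal part of the membrane arm 8 of 9 subunits were called lower (median log2 difference -0.99). The exception was Ndufs5, whose log2 difference of -0.94 did not pass (FDR 0.26). Ndufc2 (chr7:97400003-97407802, plus strand), a small membrane subunit, had 77.8, 58.3 and 97.1 CPM without and 34.2, 37.4 and 31.4 CPM with N6L, which gave the lowest FDR of all members (log2 difference -1.18, SE 0.22, FDR 0.0031). Ndufa8, a subunit facing the intermembrane space, had 160, 149 and 256 CPM without and 89.4, 84.7 and 92.2 CPM with N6L (log2 difference -1.08, FDR 0.012). In the distal part 7 of 10 Ndufb subunits were called lower (median -0.90) and all 10 were below 0, led by Ndufb9 (log2 difference -1.14) and Ndufb7 (-1.12).

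Ndufb11 (chrX:20615326-20617619, minus strand), a distal-arm subunit, had 99.6, 118 and 148 CPM without and 75.6, 67.5 and 76.3 CPM with N6L (log2 difference -0.74, FDR 0.021). Ndufb8, of the same arm, had 120, 144 and 218 CPM without and 119, 116 and 129 CPM with N6L, so that 2 N6L cultures lay below the lowest NT culture and 1 above it (log2 difference -0.41, FDR 0.24). Ndufab1, the mitochondrial acyl carrier protein that also sits in the complex, had 47.2, 33.2 and 61.5 CPM without and 27.0, 32.2 and 27.7 CPM with N6L (log2 difference -0.71, FDR 0.036). Ndufa4, outside the complex, fell by 0.86 on the log2 scale (FDR 0.016).

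**Figure D3:**
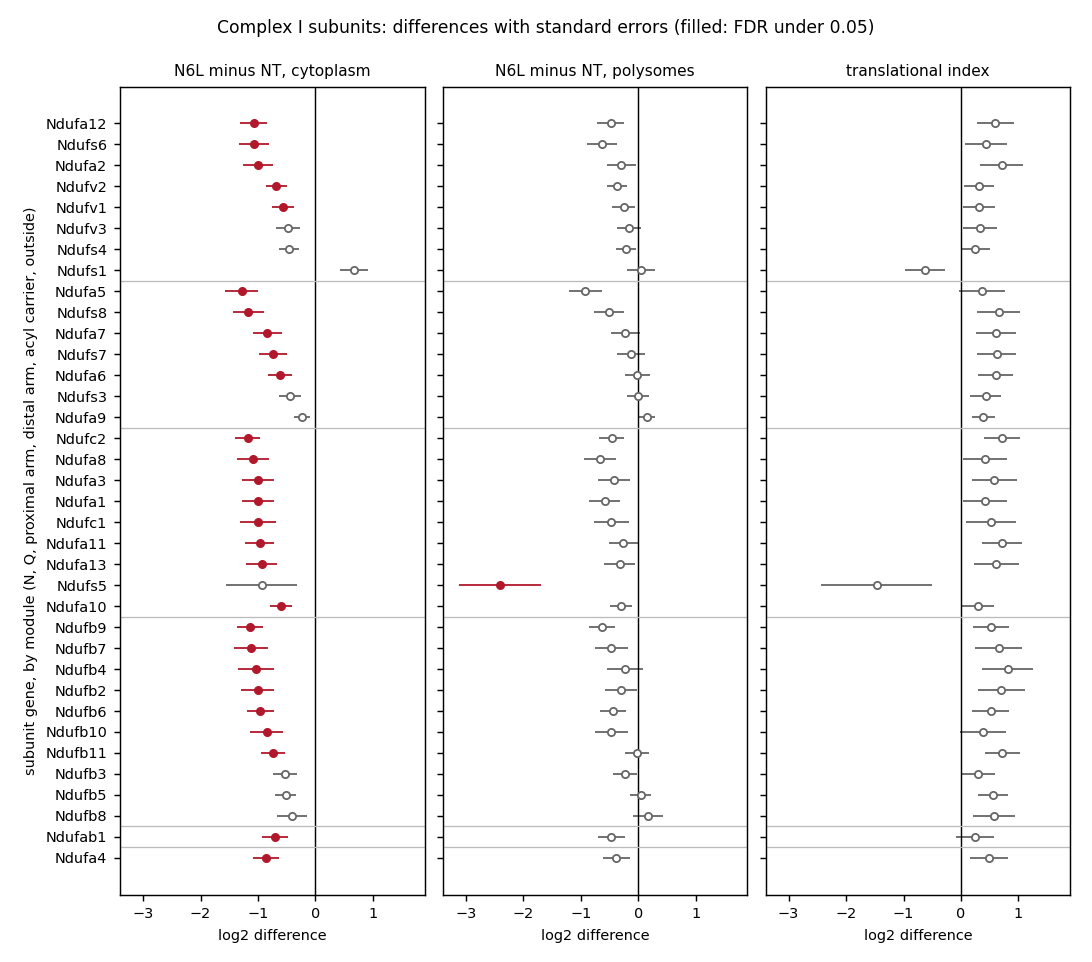
Log2 differences (points) with standard errors (bars) for 36 subunits, ordered by module and within a module by the cytoplasmic difference: N6L minus NT in the cytoplasm (left), N6L minus NT in polysomes (middle) and the translational index (right); filled red points have an FDR under 0.05. On the left 27 points are filled, all below 0, in the middle 1 (Ndufs5), and on the right 0.

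In polysomes the same mRNAs differed less. The median log2 difference between N6L and NT was -0.30, beside 0.00 for all genes, and 32 of 37 members were below 0. Only Ndufs5 passed the test, as lower (of all genes 9.67% were called in polysomes, 3.66% lower and 6.01% higher); its polysomal values were 0.42, 0.36 and 0.72 CPM without and 0.19, 0.07 and 0.00 CPM with N6L, a few counts each. Its copy BC002163 had 39.8, 40.7 and 67.3 CPM without and 26.2, 30.4 and 37.7 CPM with N6L in polysomes and did not pass there (log2 difference -0.65, FDR 0.083), so the call for Ndufs5 describes a small remainder of reads. Groups that did not overlap were seen in 2 members, Ndufs5 and Ndufa5, both with N6L lower (11.9% of all genes).

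Ndufa5 had the lowest polysomal difference among members of at least 10 CPM: 124, 89.6 and 193 CPM without and 64.8, 70.1 and 79.96 CPM with N6L (log2 difference -0.92, SE 0.29, FDR 0.059). Ndufa8 followed, with 217, 189 and 318 CPM without and 114, 121 and 221 CPM with N6L (log2 difference -0.67, FDR 0.13). N6L culture 3 was the highest treated culture in both, and in Ndufa8 it lay within the NT range.

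At the other end, Ndufb8 had 196, 196 and 296 CPM without and 184, 230 and 358 CPM with N6L (log2 difference 0.17, FDR 0.73), and Ndufa9 had 119, 114 and 131 CPM without and 115, 139 and 150 CPM with N6L (log2 difference 0.15, FDR 0.53). Of the core subunits, Ndufv1 had 165, 183 and 165 CPM against 121, 112 and 197 CPM, Ndufv2 205, 173 and 255 CPM against 140, 169 and 182 CPM, and Ndufs8 146, 146 and 207 CPM against 78.2, 98.2 and 174 CPM. Ndufs3 had 101, 91.9 and 129 CPM against 85.1, 103 and 132 CPM, and Ndufs7 136, 142 and 189 CPM against 103, 119 and 209 CPM. N6L culture 3 was the highest treated culture in all 5 of these genes. It lay above every NT culture in Ndufv1, Ndufs3 and Ndufs7 and within the NT range in Ndufv2 and Ndufs8, so that the groups overlapped in each.

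Without N6L culture 3 the polysomal median was -0.55, and 3 members (Ndufa8, Ndufb9 and Ndufs8) were called lower and 0 higher. In either direction 7.77% of all genes were then called, near the members' share. Without NT culture 4 the median was -0.07 with 0 called (4.44% of all genes), and 2 members had an unadjusted p under 0.05 in edgeR. Without both of these cultures 8 members were called lower (9.57% of all genes were called) and the median was -0.29. With the length and GC offsets 8 were called lower and 0 higher, at a median of -0.16. In either direction 21.0% of all genes were called there, near the members' share. For these fits the share of all genes called lower alone is not given. The polysomal result therefore moved with single cultures, and the groups of most members overlapped.

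Within non-treated cells no member passed the test between polysomes and cytoplasm. The log2 ratio of polysome to cytoplasm was above 0 in 37 of 37 members, with a median of 0.38 (0.03 for all genes) and values from 0.07 (Ndufs1) to 0.52 (Ndufs6). No member was called in either direction by edgeR (3 had an unadjusted p under 0.05) or by DESeq2 (4), where 0.209% of all genes were called by edgeR, all of them lower in polysomes. With the culture as a block, 0 were called and 28 had an unadjusted p under 0.05, and 1.46% of all genes were called. The share of all genes under that unadjusted limit is not given for the block.

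With N6L the ratio was larger. Each fraction is scaled to its own library, so a ratio compares shares and not amounts of an mRNA on polysomes. The paper reported that polysome peaks decreased strongly with N6L. The median log2 ratio was 0.91 (0.03 for all genes), and 32 of 37 members were higher in polysomes than in the cytoplasm, by 0.54 (Ndufv2) to 1.16 (Ndufa2) on the log2 scale, while 18.4% of all genes were called higher and 20.6% lower. The 32 included all 8 tested proximal-arm subunits other than Ndufs5, 9 of 10 distal-arm subunits, 7 of 8 in the Q module and 7 of 8 in the N module. Ndufs1 and Ndufs5 were the members below 0, with log2 ratios of -0.56 (FDR 0.082) and -1.12 (FDR 0.26). When the fractions of each lysate were paired by a culture block, 35 members were called higher and Ndufs1 was called lower (log2 ratio -0.64, FDR 0.038), and the share of all genes called was 53.7%, against 39.0% without the block. Without N6L culture 2, or without N6L culture 3, the calls dropped to 7 (8.22% and 11.7% of all genes were then called), while the median stayed at 1.01 and 0.69. With the length and GC offsets 11 were called (2367 of all 13889 genes), at a median of 0.29.

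By culture, the median log2 ratio of the 37 members was 0.46, 0.35 and 0.35 in NT cultures 1, 2 and 4 and 0.65, 0.73 and 1.24 in N6L cultures 1, 2 and 3. The treated cultures were all above the untreated ones, and N6L culture 3 was far above the others. For all genes the same medians lay between -0.02 and 0.06.

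**Figure D4:**
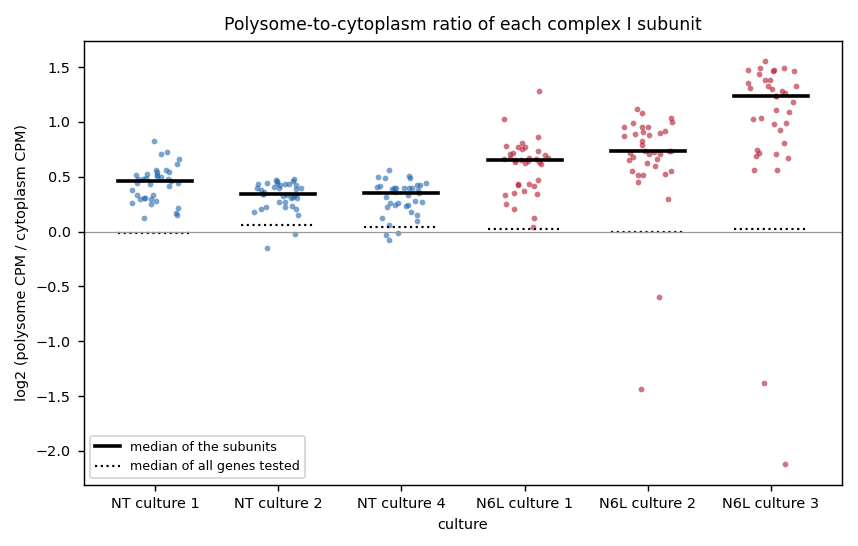
Log2 ratio of polysome to cytoplasm CPM for each of 37 subunits (points) in each of the 6 cultures, with the median of the subunits (solid bar) and of all genes tested (dotted bar); horizontal scatter within a culture has no meaning. The subunits' medians are 0.35 to 0.46 without N6L and 0.65 to 1.24 with N6L; the points below -0.5 in N6L cultures 2 and 3 are Ndufs1 and Ndufs5.

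The difference of these ratios between treatments is the translational index. It was above 0 in 35 of 37 members, with a median of 0.52 on the log2 scale, a 1.43-fold larger ratio with N6L, beside 0.01 for all genes. Without N6L culture 3 the median was 0.31, and without both that culture and NT culture 4 it was 0.34. No member passed the test in edgeR (lowest FDR 0.555, 3 with an unadjusted p under 0.05) or in DESeq2 (4), and neither did any of the 13889 genes (0.00%). Over all 13889 genes, 1074 had an unadjusted p under 0.05 in edgeR. In 26 members every N6L culture had a higher ratio than every NT culture, in 0 a lower one and in 11 the groups overlapped; 15.3% of all genes had all N6L ratios higher and 14.4% lower. Ratio and cytoplasmic level share their libraries, so the index is not separate evidence beside the fall in the cytoplasm.

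The highest index among members of at least 10 CPM belonged to Ndufb11, with log2 ratios of 0.52, 0.31 and 0.39 without and 0.67, 1.12 and 1.47 with N6L (index 0.72, SE 0.30, unadjusted p 0.030, FDR 0.55). Ndufc2 was next, with 0.33, 0.46 and 0.18 without and 0.70, 0.71 and 1.56 with N6L (index 0.72, SE 0.31, unadjusted p 0.036, FDR 0.55). The groups did not overlap in either, and N6L culture 3 gave the highest ratio in both.

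The lowest was that of Ndufs1, with log2 ratios of 0.30, -0.02 and -0.07 without and 0.04, -0.59 and -1.38 with N6L (index -0.62, SE 0.35, unadjusted p 0.092, FDR 0.55). Here the groups overlapped, because N6L culture 1 was within the NT range. Its polysomal levels, 59.6, 62.4 and 47.2 CPM without and 80.7, 60.1 and 33.8 CPM with N6L, overlapped too (log2 difference 0.05, FDR 0.92). Ndufab1 had the lowest index among members above 0 (0.24, FDR 0.75), with ratios of 0.17, 0.15 and 0.06 against 0.21, 0.30 and 0.56, which did not overlap.

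By module, the median index was 0.32 in the N module, 0.52 in the Q module, 0.53 in the proximal arm and 0.57 in the distal arm. No difference between modules was tested, since subunits are not replicates. With the length and GC offsets the median of all members was 0.19 with 30 of 37 above 0, and 0 were called.

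The rest of the respiratory chain, from lists of nuclear-encoded subunits, gave similar values. Of 39 tested subunits of complexes II to V, 25 were called lower and 1 higher in the cytoplasm (median log2 difference -0.78). Of all genes 13.8% were called lower and 14.5% higher there. In polysomes 0 were called lower and 1 higher (median -0.23), where the shares of all genes were 3.66% and 6.01%. The median index was 0.57 with 0 called (0.00% of all genes). Complex IV, cytochrome c oxidase, had 8 of 10 subunits called lower in the cytoplasm (median -0.94), and complex II, succinate dehydrogenase, 2 lower and 1 higher of 4 (median -0.12). No difference between the complexes was tested.

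Among 17 assembly factors of complex I, 6 were called lower and 1 higher in the cytoplasm (median -0.49), where 13.8% of all genes were called lower and 14.5% higher. Ndufaf2, which helps to attach the N module, went from 32.1 ± 9.39 to 14.1 ± 1.47 CPM (SD, n = 3; log2 difference -1.19, FDR 0.0032), and Acad9, a factor of the membrane arm, rose from 27.1 ± 8.17 to 48.2 ± 3.28 CPM (log2 difference 0.83, FDR 0.025). Of 9 regulators of respiratory genes, 2 were called lower and 2 higher in the cytoplasm, near the shares of all genes (13.8% and 14.5%). Esrra, a nuclear receptor, fell by 0.60 and Tfam, the factor of mitochondrial transcription, fell by 0.47 on the log2 scale. The coactivators Ppargc1a and Ppargc1b, both below 8 CPM, had log2 differences of 1.59 and 1.00. Nrf1 did not pass (log2 difference 0.27, FDR 0.15).

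The mitochondrially encoded ND subunits, the membrane core of the complex, cannot be read as levels in the cell here, because mitochondria had been removed. Of the 7 genes, mt-Nd3 and mt-Nd4l were at 0 in every library and 5 were tested. In the cytoplasm 4 of the 5 were called lower with N6L (median log2 difference -2.78), as were 13.8% of all genes. mt-Nd1 had 2807 ± 1167 CPM without and 409 ± 178 CPM with N6L (SD, n = 3). The share of counts from the mitochondrial genome was 0.454% to 0.966% in the NT cytoplasm and 0.121% to 0.242% in the N6L cytoplasm, and at most 0.116% in polysomes; its part in the results on the nuclear subunits was not tested.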

How the data were processed

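RNA-seq of poly(A)+ RNA was measured in 12 libraries (2 treatments, 2 fractions, 3 cultures each). Per the labels and methods, the authors demultiplexed with bcl2fastq 2.18.0.12, aligned with STAR to mm10 and counted reads per gene with HTSeq 0.5.3; the deposited files hold unnormalized counts, 4 technical replicates to a library. The sources used here do not give the counting options. Total counts per library ranged from 19519911 to 44972333, and intervals from counts would cover counting error only.

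Samples were grouped by their titles. For 3 technical replicates of N6L cytoplasm culture 2 the labels conflict on the culture; they were kept, and dropped in one alternative. The 4 runs were added up (chi-square per degree of freedom within a library 1.02 to 1.04). Of 50600 gene IDs 50376 matched GENCODE vM21 (GRCm38), and 0 rows named no gene. Counts were filtered with filterByExpr (13889 genes), TMM factors were applied, and the model was edgeR 4.0.16 under R 4.3.3 (glmQLFit and glmQLFTest, 1 mean per treatment and fraction, no block, all 12 libraries), with Benjamini-Hochberg adjustment over all genes tested and an FDR limit of 0.05. The standard error is the log2 difference divided by the square root of F. DESeq2 1.42.0 was the alternative tool. Levels are TMM-scaled CPM; log2 ratios per culture used a prior count of 2. TPM used the median-length CCDS transcript of each gene, as did the length and GC offsets. The scripts were tested on simulated data. Both fractions of a culture came from one lysate and are paired (correlation of deviations from the group means 0.36 to 0.64 in NT and 0.04 to 0.23 in N6L).

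All members may be named; per-library values are given for the nuclear core subunits and, among members of at least 10 CPM, for the 2 highest and 2 lowest differences in each treatment contrast and the index. The single values of 1 member are not reported here; it is counted in the summaries. Single genes of other lists, Ndufs5 and its copy were chosen after their values were seen. Members, lists and comparisons were chosen with earlier results of these data known. Alternatives were other scalings and filters, DESeq2, fewer technical replicates, leaving out each culture, fitting only the groups compared, offsets and blocks.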

Additional observations from a re-analysis of the deposited data

How the results depend on the processing

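The limits lie in 3 cultures per group, in the libraries that stood apart (NT culture 4, and N6L culture 3 in polysomes) and in the shift between short and long transcripts. In the cytoplasm, 15 members were called instead of 27 with offsets for transcript length and GC content (median -0.40, 29.7% of all genes called). With single cultures left out 7 to 26 were called (9.24% to 28.7% of all genes), 7 without N6L culture 2 and 15 without NT culture 4. In polysomes, against 1 call, there were 0 with library size alone, with at least 10 counts in every library and with technical replicate a alone. There were also 0 without the replicates of conflicting label (9.41% of all genes) and with only the groups compared (2.46%). DESeq2 called 2 (14.6% of all genes), culture number as a block 3 (9.76%), no filter 5 (6.66%) and offsets 8 (21.0%). With single cultures left out 0 to 3 were called (1.04% to 11.2% of all genes). Without both NT culture 4 and N6L culture 3, a setting chosen after seeing the data, 8 were called (9.57%). For polysome against cytoplasm in NT, the median was 0.30 with library size alone, 0.13 with offsets and 0.12 with block and offsets together. In that last setting 2 members were called (3.88% of all genes). With any single culture left out 0 were called (0.0% to 2.38% of all genes), and without both cultures 1 was called (4.59% of all genes). In N6L, 11 members were called with offsets (median 0.29, 2367 of all 13889 genes called). With block and offsets 18 were called (median 0.29, 33.1% of all genes). With single cultures left out 7 to 34 were called (8.22% to 41.8% of all genes). The median index was 0.31 to 0.62 with single cultures left out, lowest without N6L culture 3, and 0.34 without both cultures. It was 0.19 with offsets and 0.18 with block and offsets. With the culture block alone 0 members and 0.0% of all genes passed, and the median was 0.47. There 23 members had an unadjusted p under 0.05, and the share of all genes under that limit is not given. Of the differences that had passed the test, that of Ndufv3 between polysomes and cytoplasm in N6L turned sign, to -0.16 with offsets; the other turns listed here were in differences that had not passed. With offsets, Ndufb8 in the cytoplasm was 0.15, and in polysomes Ndufb11 was 0.058 and Ndufs3 0.027, while the index was -0.0075 for Ndufa8 and -0.083 for Ndufv1 (-0.019 and -0.087 with the block added). For Ndufv1 it was -0.044 without both cultures and at most 0.49 with any culture left out. In polysomes, Ndufb11 was 0.057 and Ndufs3 0.071 with library size alone, and Ndufs3 was 0.010 with technical replicate a alone and 0.0014 with only the groups compared. With single cultures left out, polysomal differences ran from -0.28 to 0.15 for Ndufb11, -0.15 to 0.40 for Ndufb8, -0.26 to 0.32 for Ndufs1, -0.19 to 0.16 for Ndufs3 and -0.49 to 0.071 for Ndufs7. NT and N6L cultures of one number shared only the number (correlations 0.01 to 0.30). The cause of these changes was not tested.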
